A study of Homo sapiens with 6 samples.

Results

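The step from 100 nM to 300 nM decitabine was described by comparing the 2 libraries of 786-0 cells treated at 300 nM with the 2 treated at 100 nM, chosen by their titles, out of 6 libraries in all. The other 2 libraries received DMSO, the vehicle, and give the starting level of each gene. 786-0 is an established line from a human clear cell renal carcinoma, and the labels give a SETD2 knockout as the genotype of all 6 libraries, so no comparison with intact SETD2 could be made here. Decitabine or DMSO was given daily for 3 days, the medium was renewed on day 4, and polyadenylated RNA was sequenced from cells harvested on day 5. The labels do not say whether the knockout is 1 clone or whether the 2 libraries of a dose came from separate cultures, so the p-values measure the spread between libraries, which may be technical. Of 58381 annotated genes, 23160 had enough reads to be tested.

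Decitabine is an analogue of deoxycytidine that cells phosphorylate and build into DNA, where it traps the maintenance methyltransferase DNMT1, so that methylation at CpG sites is diluted as cells divide. Promoters held silent by methylation, such as those of germ-cell genes, can then be transcribed. Transcripts from reactivated repeats can form double-stranded RNA, which sensors such as RIG-I and MDA5 detect and which leads to transcription of interferon-stimulated genes. At higher doses the drug also forms DNA adducts that block replication. SETD2 places trimethylation on lysine 36 of histone H3 along transcribed genes. Depth was alike, at 89159112 to 96646427 reads assigned to genes per library, and 0 reads leave room for at most 0.031 to 0.0336 CPM (reads scaled to a common library size by TMM).

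The targeted gene was read in every library. SETD2 (ENSG00000181555.20, GRCh38 chr3:47016429-47163967, minus strand) had 77.9 and 81.2 CPM in the vehicle libraries, 39.8 and 49.1 after the lower dose and 16.4 and 21.7 after the higher. Without intact cells these levels check no genotype. The renal lineage factor PAX8 was at 254 CPM in both DMSO libraries, at 144.5 and 171.2 at 100 nM and at 80.4 and 80.2 at 300 nM. CDH6, another renal marker, went from 165 and 172 CPM to 33.7 and 40.6 and then to 19.2 and 21.4. The renal markers PAX2, EPAS1, VIM and NNMT were read in all libraries, and KRT18, ANGPTL4 and NDUFA4L2 were higher at each dose. CA9, a hypoxia target typical of clear cell carcinoma, was at most 0.29 CPM. The leucocyte marker PTPRC and the T-cell marker CD3E had at most 10 reads in any library, while TYROBP, an adaptor of myeloid cells, went from 0 with DMSO to 4.22 and 3.5 CPM at 100 nM, then 5.99 and 4.96 at 300 nM. Over all genes tested, 20.0% were called higher and 23.4% lower at 300 nM than at 100 nM (18.1% and 20.9% with the length and GC offsets described next). Of 29 tested blood and immune markers, 10 were called higher at 300 nM and 1 lower (4 and 1 with those offsets). Without replicate 1 or 2 of 100 nM or replicate 1 of 300 nM, 6, 5 and 4 of them were higher. In bulk RNA, a change in the number of expressing cells and a change in RNA per cell cannot be told apart.

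Fold changes at the dose step varied with the exon length and GC content of the genes. Among 12432 protein-coding genes averaging 1 CPM or more, the median log2 fold change (300 nM over 100 nM) ran from -1.05 in the decile of genes with the lowest GC content to 0.447 in the decile with the highest. In the lowest GC decile 85.7% of genes were called lower and 1.13% higher, and in the highest 62.4% were called higher and 2.65% lower. By exon length the median ran from 0.356 in the shortest decile to -0.531 in the longest. The GC content is that of the longest GENCODE v29 transcript, and the length is the merged exon length in the count files. Across these genes the fold change had a Pearson r of 0.65 with GC content and -0.35 with log2 length, given as a description of genes that share libraries.

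The slope was also read in the single libraries. In 1144 genes in both the longest and the lowest-GC quartile, the median log2 level relative to DMSO was -0.738 and -0.502 in the 2 libraries at 100 nM and -1.69 and -1.43 in the 2 at 300 nM. In 1187 genes in both the shortest and the highest-GC quartile it was 0.323 and 0.225 at 100 nM and 0.874 and 0.637 at 300 nM. The libraries of the 2 doses did not overlap in either set. In 387 genes in both the shortest and the lowest-GC quartile the median log2 fold change was -0.534, with 17 higher and 225 lower. In 412 genes in both the longest and the highest-GC quartile it was 0.244, with 176 higher and 39 lower. Whether this slope comes from the cells' RNA or from the libraries was not tested. Each result below is therefore given from 2 fits of edgeR's quasi-likelihood test: without offsets, and with offsets that remove, per library, a smooth curve of length and GC content. With offsets all length and GC deciles had a median between -0.102 and 0.00884, and r fell to 0.087 with GC content and -0.054 with length. The residual spread between replicates, as the biological coefficient of variation, was 11.8% without and 8.2% with offsets.

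**Figure D1:**
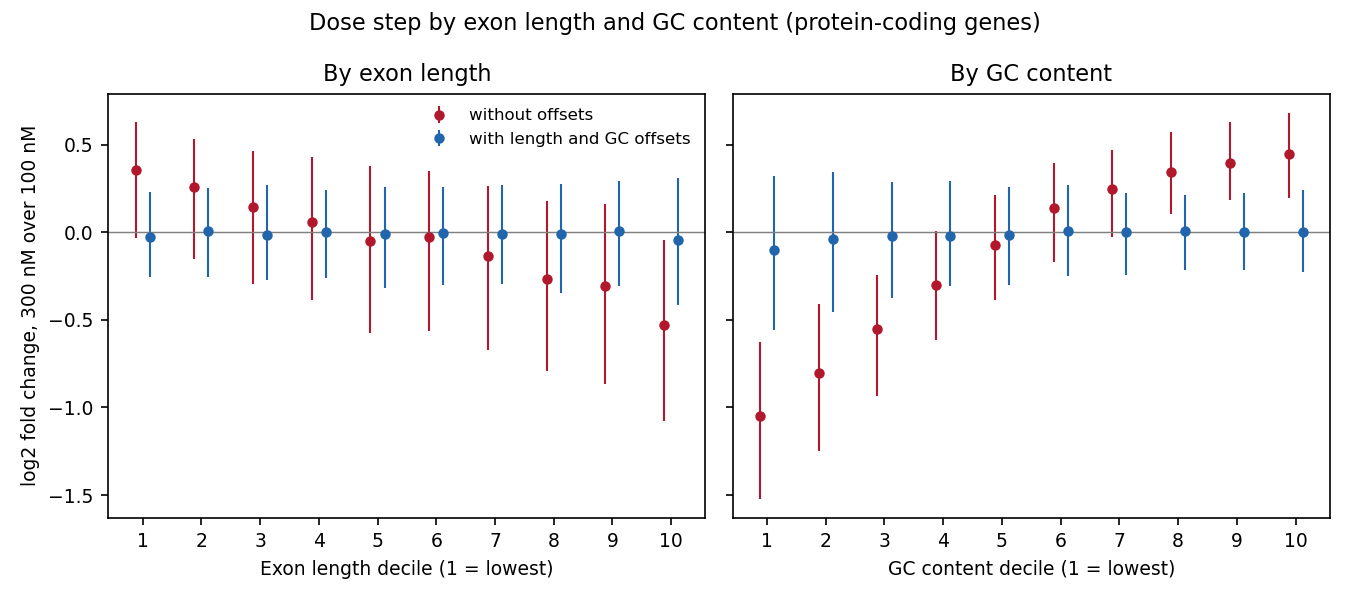
Median log2 fold change (points) and interquartile range (bars), 300 nM over 100 nM, in deciles of 12432 protein-coding genes by exon length (left) and GC content (right). Without offsets the medians run from 0.356 to -0.531 with length and from -1.05 to 0.447 with GC content; with offsets all lie near 0.

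At an adjusted p under 0.05 (edgeR, Benjamini-Hochberg), 4623 genes (20.0% of those tested) were higher and 5431 (23.4%) lower at 300 nM than at 100 nM without offsets, 43.4% in all. With offsets 4193 (18.1%) were higher and 4831 (20.9%) lower. The share of higher calls was 46.0% without offsets, 59.8% under upper-quartile scaling, which put the median of all genes at 0.13 against -0.04, and 46.5% with offsets, where centring each curve at 0 made it 32.2%. Genes called the same way in both fits numbered 2656 higher (11.5%) and 3227 lower (13.9%). The counts of each list below are to be read beside these shares over all genes. Of both-way calls, 876 rose (3.78%) and 939 fell (4.05%) at least 2-fold in each fit. Without replicate 2 of 100 nM the fit without offsets called 2896 higher and 4087 lower.

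Some genes changed side with the offsets: 382 called lower without offsets were called higher with them, and 39 went the other way. Of the most abundant of them, YWHAZ, a 14-3-3 adaptor, was at 1335.3 and 1415.4 CPM at 100 nM and 973.9 and 1172.3 at 300 nM, a log2 fold change of -0.36 without and 0.41 with offsets. HNRNPU, a nuclear RNA-binding protein with 22.5 kb of exons at 37.9% GC, went from -0.27 to 0.89. CANX, an endoplasmic reticulum chaperone, and ITM2B, a membrane protein, did likewise. In the other direction HLA-C, which has near-identical relatives, ISG15 and the actin-capping gene CAPG, at 60.1% to 63.4% GC, were called higher by 0.28 to 0.48 without and lower by 0.17 to 0.22 with offsets, on the log2 scale. No direction is given for these 7 genes.

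Set beside the step from DMSO to 100 nM, genes fell into 4 courses (42.7% of genes were called at that step). The steps share the 100 nM libraries, which count in both with opposite sign. Higher at both steps were 2129 genes without offsets (9.19%), 2144 with them (9.26%) and 1281 in both fits (5.53%). Lower at both were 2555 (11%), 2460 (10.6%) and 1430 (6.17%). Higher at 100 nM and then lower were 484 (2.09%), 705 (3.04%) and 283 (1.22%), and lower and then higher were 390 (1.68%), 673 (2.91%) and 195 (0.842%). Of the 484 that rose and then fell, 175 were still above DMSO at 300 nM, 248 had no call against DMSO and 61 were below it. The median second-step change was 0.833 of the first-step change in that course and 0.559 in the course that rose at both steps. Without replicate 2 of 100 nM the reversing counts were 237 and 127 without offsets and 409 and 351 with them, and without replicate 1 of 100 nM 1646 genes were lower at both steps and 223 lower and then higher. The last count was also low without either DMSO library, at 182 and 181, and 437 with offsets without DMSO replicate 2.

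Interferon effectors rose at the lower dose, and many were lower again at the higher. Of 66 interferon effectors, which block viral replication, translation or assembly, 64 rose at 100 nM in each fit. At 300 nM against 100 nM 33 were lower and 12 higher without offsets, and 37 lower and 8 higher with them, with 26 lower and 3 higher in both fits. The median log2 fold change of the list was -0.365 without and -0.208 with offsets, against -0.0362 and -0.0575 over all genes tested. The count higher was 7, 6 and 7 without replicate 1 or 2 of 100 nM or replicate 1 of 300 nM. Relative to DMSO the effectors' median log2 level was 1.90 and 1.93 in the 100 nM libraries and 1.37 and 1.5 at 300 nM. With offsets these medians were 1.94 and 2.01, then 1.75 and 1.69, so the 2 doses did not overlap in either scale. Of 33 effectors that rose and then fell without offsets, 18 were still above DMSO at 300 nM, 6 had no call against it and 9 were below it. With offsets these were 30, 4 and 2 of 36.

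SAMD9L and SAMD9, restriction factors against poxviruses, had the largest falls of the 66 in both fits. SAMD9L stood at 29.4 and 30.2 CPM with DMSO, 48.3 and 69.7 at 100 nM, then 7.44 and 8.27 at 300 nM, a fall of 2.91 on the log2 scale (SE 0.16, edgeR adjusted p = 5.4e-09), or 2.01 (adjusted p = 5.5e-08) with offsets. Its 300 nM libraries lay below the DMSO libraries too, in CPM without offsets. SAMD9 went from 137.0 and 189.4 to 19.7 and 26.1 CPM, a fall of 2.83, or 1.83 with offsets. DDX60, a helicase that supports RNA sensing, was at 56.5 and 61.0 CPM with DMSO, 72.3 and 88.2 at 100 nM, then 13.1 and 16.8 at 300 nM (fall of 2.42, SE 0.14, edgeR adjusted p = 7e-09; 1.60 with offsets). IFI44L, a feedback regulator of the response, rose from 8.55 and 8.65 to 93.3 and 135.6 CPM and returned to 17.2 and 23.1, still above DMSO. These 4 genes have 36% to 39.1% GC and 6.75 to 10.2 kb of exons, and the offsets made each fall smaller by 0.82 to 1.02.

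Not all effectors followed. MX1, a GTPase that traps viral nucleocapsids, rose again, from 280.3 and 273.2 CPM at 100 nM to 467.0 and 393.1 at 300 nM, by 0.64 (SE 0.10, edgeR adjusted p = 0.00011) and 0.58 with offsets. IFI27, a mitochondrial interferon-induced protein, went from 717.4 and 678.8 to 1059.7 and 917.7 CPM, by 0.50 and 0.33, and PARP12, an ADP-ribosyltransferase, by 0.49 and 0.27. IFIT3, which binds viral RNA in a complex with IFIT1, fell from 350.1 and 444.9 to 136.9 and 167.1 CPM (by 1.39, or 1.22 with offsets). IFIT1 itself changed by -0.49 without offsets and by -0.02 with them, where it had no call. OAS2, which makes the activator of RNase L, fell by 0.35 and 0.24. The 26 effectors lower in both fits had a median GC content of 42.5% and 5.83 kb of exons, and the other 40 had 51.5% and 4.71 kb.

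**Figure D2:**
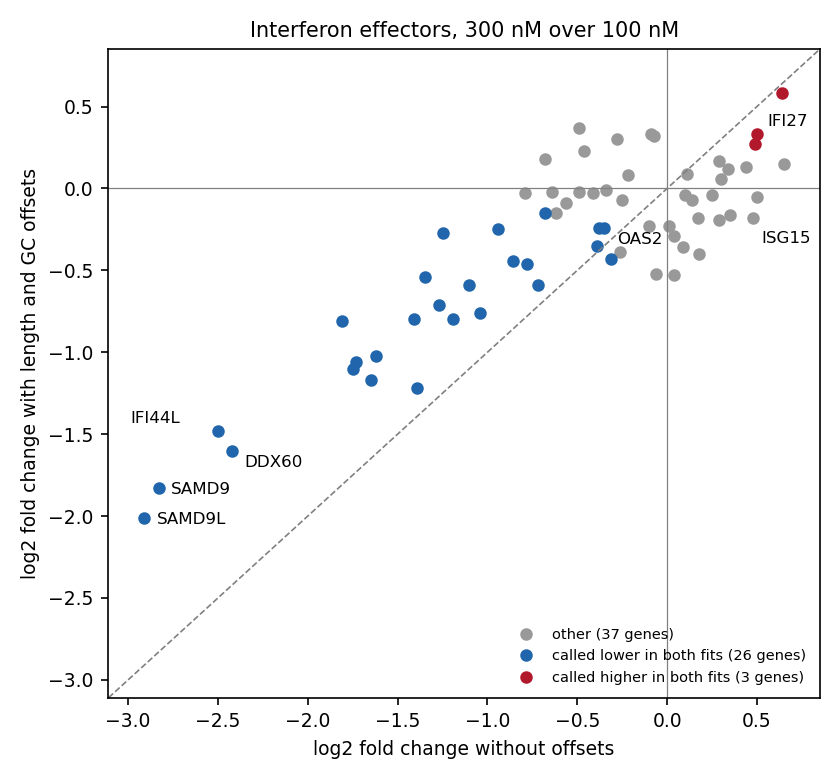
Log2 fold change at 300 nM over 100 nM of 66 interferon effectors without (x) and with (y) length and GC offsets; each point is 1 gene, coloured by its calls, and the dashed line marks equal values. The 26 genes lower in both fits reach down to SAMD9L at -2.91 and -2.01, and 25 of them lie above the dashed line, where a fall is smaller with offsets.

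Upstream of the effectors the regulators had no one direction in both fits. Of 12, 3 were lower and 2 higher without offsets (median 0.149) and 6 and 0 with them (median -0.219). Their median log2 level relative to DMSO was 1.32 and 1.46 at 100 nM, then 1.48 and 1.30 at 300 nM, so the doses overlapped without offsets. With offsets it was 1.38 and 1.46, then 1.24 and 1.21, with no overlap. In both fits 3 were lower, among them STAT2, a transcription factor that carries the interferon signal to the nucleus. STAT2 went from 192.8 and 182.6 to 132.8 and 129.8 CPM, below both 100 nM libraries, a fall of 0.52 (SE 0.10, edgeR adjusted p = 4.5e-04) and of 0.59 with offsets. Of 29 sensors, adaptors and interferon genes, 12 were lower and 2 higher without offsets, 14 and 1 with them, and 10 lower and 0 higher in both. DDX58, which encodes the RNA sensor RIG-I, rose from 14.4 and 16.4 to 49.7 and 73.0 CPM at 100 nM. It stood at 13.3 and 18.3 CPM at 300 nM, level with DMSO on this scale without offsets. Its fall was 1.95, or 1.33 with offsets. IFIH1, the sensor MDA5, fell by 1.30 and 0.94, the DNA sensor IFI16 by 1.46 and 0.65, and the kinase TBK1, which activates IRF3, by 1.97 and 1.24.

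An interferon-related motif was frequent in the promoters of the effectors that fell and of those that did not. RefSeq promoter windows (GRCh38.p14, 250 bases before to 50 after a gene's RefSeq start) were found for 12223 of 15386 tested protein-coding genes. The interferon-stimulated response element was searched as GAAANNGAAA on both strands. It was found in 2.99% of all windows, in 72.5% of 51 effector windows, in 69.6% of the 23 whose genes fell in both fits and in 75% of the 28 others. Of 190 windows of genes that rose and then fell in both fits 13.2% held it, against 3.75% of the 160 that remain outside the interferon lists. Of 871 windows of genes higher at both steps 2.3% held it. A match is a description of letters and not a shown binding site. The windows of 2 effectors that fell and of IFI27, which rose, are printed 5′ to 3′ on the gene's strand with each match in capitals (IFI44L at chr1:78620198-78620497, DDX60 at chr4:168318703-168319002, IFI27 at chr14:94110486-94110785), since all 3 carry 2 matches while their genes moved in opposite directions.
IFI44L: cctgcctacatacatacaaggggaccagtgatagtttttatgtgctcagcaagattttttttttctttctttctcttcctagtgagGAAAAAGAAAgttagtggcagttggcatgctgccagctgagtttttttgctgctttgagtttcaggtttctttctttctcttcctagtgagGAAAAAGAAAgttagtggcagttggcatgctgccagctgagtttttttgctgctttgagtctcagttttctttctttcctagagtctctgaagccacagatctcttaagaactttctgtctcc
DDX60: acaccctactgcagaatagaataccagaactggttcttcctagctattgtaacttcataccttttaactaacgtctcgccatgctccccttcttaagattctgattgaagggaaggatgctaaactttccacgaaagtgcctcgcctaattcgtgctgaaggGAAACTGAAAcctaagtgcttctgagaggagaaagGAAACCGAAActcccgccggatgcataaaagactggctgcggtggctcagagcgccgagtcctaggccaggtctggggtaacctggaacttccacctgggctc
IFI27: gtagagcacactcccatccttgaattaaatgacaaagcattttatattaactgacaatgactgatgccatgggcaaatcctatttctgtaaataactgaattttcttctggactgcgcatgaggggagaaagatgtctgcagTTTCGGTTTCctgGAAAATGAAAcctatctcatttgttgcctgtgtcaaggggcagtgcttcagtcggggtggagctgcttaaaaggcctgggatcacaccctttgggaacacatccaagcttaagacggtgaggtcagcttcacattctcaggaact

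Other genes that rose and fell again, chosen as the 6 with the largest smaller step, came from matrix, inflammatory and metabolic genes beside IFI44L and DDX58. ELN (ENSG00000049540.16, GRCh38 chr7:74027789-74069907), which encodes elastin, stood at 0.27 and 0.0638 CPM with DMSO, 20.4 and 25.3 at 100 nM, then 2.15 and 1.75 at 300 nM. At 61.6% GC, its log2 fold change was -3.55 (SE 0.24, edgeR adjusted p = 1.9e-08) without and -3.88 with offsets. SOD2, the mitochondrial superoxide dismutase and an NF-kB target, went from 295.0 and 430.8 CPM to 95.9 and 121.0 (fall of 1.74, or 0.92 with offsets). KYNU, an enzyme of tryptophan breakdown, fell by 1.9 and 0.69, and CASP1, the inflammasome protease, by 1.91 and 1.36. With offsets, KYNU lost its call without replicate 1 or 2 of 100 nM or replicate 2 of 300 nM (adjusted p = 0.064, 0.2 and 0.171), and CASP1 without replicate 2 of 100 nM (adjusted p = 0.066).

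Part of the cholesterol synthesis genes reversed as well. Of 29 genes 16 were lower and 1 higher without offsets, 20 and 1 with them, and 12 lower and 0 higher in both. Those that had risen at 100 nM and were then lower numbered 10 without and 11 with offsets. INSIG1, which retains the sterol sensor complex in the endoplasmic reticulum, went from 222.1 and 240.8 CPM to 312.4 and 297.3 and then to 127.7 and 139.4. It fell by 1.19 (SE 0.10, edgeR adjusted p = 1.5e-07) and 1.13 with offsets, so its value barely moved with them, and its 300 nM libraries lay below those with DMSO. HMGCS1, the synthase ahead of HMG-CoA reductase, went from 165.2 and 181.6 to 61.6 and 76.8 CPM (fall of 1.32, or 0.67 with offsets). The sterol desaturase SC5D fell by 1.44 and 0.63 and STARD4, a cholesterol carrier, by 1.64 and 0.62, but neither had risen at 100 nM. The list's median was -0.346 without and -0.314 with offsets.

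Of the 390 genes that fell and then rose without offsets, 287 had no call against DMSO at 300 nM. ADAMTS15, a matrix protease, stood at 9.21 and 8.52 CPM with DMSO, 3.28 and 2.89 at 100 nM, then 9.50 and 8.76 at 300 nM, a rise of 1.56 (SE 0.16, edgeR adjusted p = 9.8e-07) and 1.22 with offsets. EPHB4, an ephrin receptor, went from 2.71 and 2.22 to 5.62 and 5.09 CPM (1.12 and 0.80), where DMSO held 5.31 and 4.50. CPLX1, a regulator of vesicle fusion, rose by 1.41 and 0.91, ASTN2, an astrotactin, by 1.76 and 1.54, and MB, myoglobin, by 1.71 and 1.27. EPHA6, another ephrin receptor, rose by 0.96 and 1.14. These are low levels, and EPHA6 lost its call without replicate 1 of 100 nM or replicate 2 of 300 nM (adjusted p = 0.078 and 0.051), CPLX1 with offsets without replicate 1 of 100 nM (0.057) and MB with offsets without replicate 1 of 100 nM or replicate 2 of 300 nM (0.121 and 0.05).

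**Figure D3:**
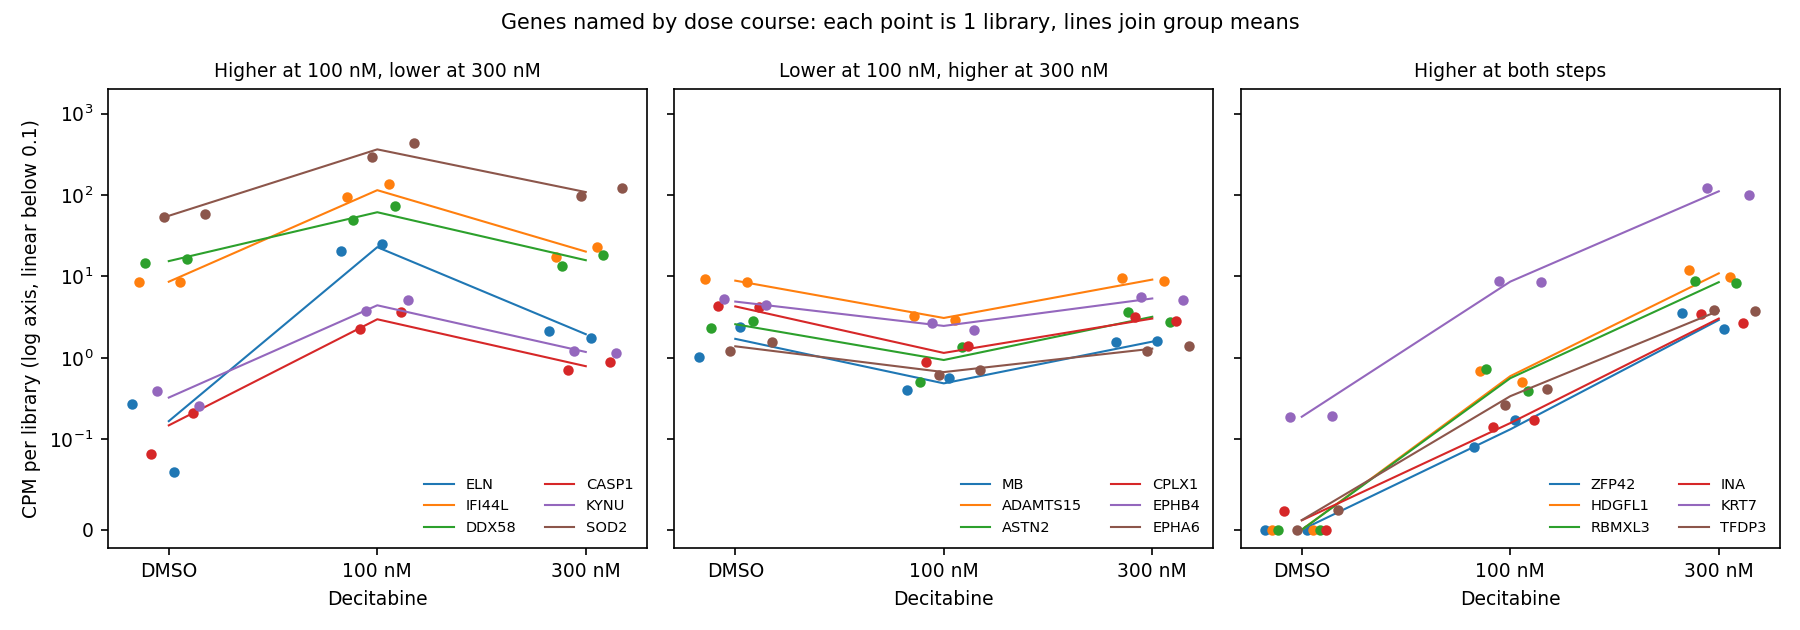
CPM of each library (points, log axis that is linear below 0.1) with lines through the group means, for 6 genes that rose and then fell (left), 6 that fell and then rose (middle) and 6 that rose at both steps (right). In the left panel all 100 nM libraries lie above those of both other groups, in the middle panel they lie under both, and in the right panel KRT7 climbs from 0.187 and 0.191 to 122.6 and 99.1 CPM.

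Germ-cell genes went on rising, and no member of either list rose and then fell. Of 66 X-linked cancer-testis genes 50 were higher without offsets and 39 with them, all 39 in both fits, and 0 were lower. Their median log2 fold change was 1.49 and 1.32 with offsets. Relative to DMSO the median of the list was 1.34 and 1.37 at 100 nM and 2.24 and 2.31 at 300 nM. Of 49 autosomal germ-cell genes 32 were higher and 2 lower without offsets, 33 and 1 with them, and 31 and 1 in both. With a mean of at least 1 CPM required, 30 X-linked and 19 autosomal genes were higher without offsets, as fewer were tested.

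MAGEA4, a melanoma antigen, stood at 0.104 and 0.106 CPM with DMSO, 28.5 and 22.8 at 100 nM, then 137.7 and 119.1 at 300 nM, a second rise of 2.32 (SE 0.13, edgeR adjusted p = 5.6e-09) and 2.1 with offsets. TKTL1, a transketolase-like gene, went from 31.9 and 26.7 to 178.3 and 161.5 CPM (2.54 and 2.34). CXorf67, also known as EZHIP and an inhibitor of the PRC2 methyltransferase, went from 1.43 and 0.909 to 10.3 and 9.19 CPM (3.06 and 2.52). VCX2 rose by 2.91 and 2.29, but it has near-identical copies between which reads may be split. DAZL, an RNA-binding protein of germ cells, went from 0.0208 and 0.0213 CPM with DMSO to 3.12 and 3.43 and then 20.3 and 22.8. At 38.3% GC its rise was larger with offsets, 3.46 against 2.72, and so was that of the piRNA factor MAEL, 2.62 against 2.17. TUBA3E, a testis tubulin with near-identical copies, rose by 2.32 and 1.77.

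Among protein-coding genes averaging 1 CPM or more with 10 or more reads in every decitabine library, the 8 that rose most in both fits, KRT7 (described with the keratins) among them, were near silent with DMSO. Ranking by fold change favours genes that were low before the step. NPPB and HDGFL1 could average 1 CPM only through their 300 nM libraries, so near silence was partly set by this choice. NPPB, the precursor of B-type natriuretic peptide, was at 0.367 and 0.444 CPM at 100 nM, within the range of DMSO (0.499 and 0.213), and at 13.6 and 11.2 at 300 nM. It rose by 4.93 (SE 0.27, edgeR adjusted p = 5.4e-09) and 4.31 with offsets, and had no call at the lower dose. CLDN6 (ENSG00000184697.6, GRCh38 chr16:3014712-3020071), an embryonic tight-junction claudin, went from 1.72 and 1.19 to 38 and 33 CPM (4.60 and 4.06). HDGFL1 (ENSG00000112273.6, GRCh38 chr6:22569493-22571666), a testis gene of the HDGF family, had 0 reads with DMSO, 0.693 and 0.498 CPM at 100 nM, then 12.1 and 9.69 at 300 nM (4.19 and 3.68). INA, a neuronal intermediate filament, rose by 4.25 and 4.03, KLHL35 by 3.85 and 3.65, RBMXL3 by 3.91 and 3.46 and TFDP3, a cancer-testis relative of the E2F partner DP1, by 3.48 and 3.32. Among genes that rose at both steps, ZFP42, the pluripotency factor REX1, went from 0.0917 and 0.173 to 3.55 and 2.28 CPM (4.45 and 4.66).

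Decitabine acts at CpG sites, so the promoters of 2 of these genes are shown, 5′ to 3′ on the gene's strand, with each CG in capitals (HDGFL1 at chr6:22569316-22569615 and CLDN6 at chr16:3018134-3018433, RefSeq, GRCh38.p14). HDGFL1's window holds 28 CG and CLDN6's 21. The median was 25 in all 12223 windows, 18 in 515 windows of genes higher in both fits by at least 2-fold, 11 in X-linked cancer-testis genes, 23.5 in autosomal germ-cell genes and 8 in interferon effectors. Methylation was not measured in these libraries.
HDGFL1: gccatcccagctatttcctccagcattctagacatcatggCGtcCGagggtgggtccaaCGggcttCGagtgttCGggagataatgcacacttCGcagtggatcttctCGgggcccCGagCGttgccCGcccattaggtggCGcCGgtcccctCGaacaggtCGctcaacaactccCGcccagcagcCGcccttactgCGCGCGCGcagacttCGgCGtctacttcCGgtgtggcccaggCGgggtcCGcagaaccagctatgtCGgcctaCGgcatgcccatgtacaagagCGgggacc
CLDN6: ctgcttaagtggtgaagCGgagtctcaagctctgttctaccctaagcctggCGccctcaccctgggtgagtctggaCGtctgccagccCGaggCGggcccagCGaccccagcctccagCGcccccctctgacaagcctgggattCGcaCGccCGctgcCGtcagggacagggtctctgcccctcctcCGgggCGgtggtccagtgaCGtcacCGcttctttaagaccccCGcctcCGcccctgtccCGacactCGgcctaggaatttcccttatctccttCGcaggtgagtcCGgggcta

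Genes of epithelial identity rose again too. Of 29 keratins 21 were higher and 0 lower without offsets, 16 higher and 2 lower with them, and 16 and 0 in both fits, with a median of 1.53 and 1.01. KRT7 (ENSG00000135480.15, GRCh38 chr12:52232520-52252186), a keratin of simple epithelia, went from 8.77 and 8.48 CPM at 100 nM to 122.6 and 99.1, a rise of 3.68 (SE 0.14, edgeR adjusted p = 1.1e-10) and 3.25 with offsets. KRT17 went from 33.3 and 28.4 to 154.7 and 114.8 CPM (2.13 and 1.65), KRT81, a hair keratin with close copies, rose by 1.77 and 1.22, and KRT18, already at 107.4 and 102.7 CPM with DMSO, by 1.31 and 0.92. Of 49 junction genes 25 were higher and 6 lower without offsets, 24 and 4 with them, and 23 and 4 in both. LAD1, an anchoring filament protein, rose by 3.01 and 2.57, the epithelial splicing factor ESRP2 by 2.17 and 1.82 and the desmosome component PKP1 by 1.97 and 1.71. Mesenchymal and matrix genes were mixed, with 21 higher and 11 lower of 68 in both fits. TAGLN, a smooth muscle actin-binding protein, went from 11.2 and 9.74 to 45.0 and 36.7 CPM (1.96 and 1.58), and FN1, fibronectin, from 3782.4 and 4288.0 to 1725.8 and 1861.0 (fall of 1.17, or 0.39 with offsets).

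The higher dose also read out genes that the lower dose left near 0. In both fits 101 protein-coding genes with at most 10 reads over the 100 nM libraries were higher at 300 nM. Of them, 93 also had at most 10 reads over the DMSO libraries. These 93 could pass the low-count filter almost only through their 300 nM libraries, so their direction was largely set by the filter. The 6 at the highest level were the thyroid factor FOXE1, the homeobox genes BARX1 and SIX2, BSPRY, the WNT antagonist SOST and PRR23B. FOXE1 went from 6 to 248 reads over the group, a ratio of 44.4 (95% counting interval 20.1 to 122), and SIX2, a nephron progenitor factor, from 2 to 176 (94.5, interval 25.8 to 786). The FOXE1 libraries were at 0 and 0.0649 CPM at 100 nM and 1.43 and 1.37 at 300 nM. The intervals cover counting error only, and mates were counted separately, so they are too narrow. Going the other way, 27 protein-coding genes fell to at most 10 reads, having passed the filter almost only through the other groups. The 101 and the 27 are descriptions, given without a share of all such genes. PI15, a secreted protease inhibitor, had 0 reads with DMSO, 129 over the 100 nM libraries (0.652 and 0.703 CPM) and 0 at 300 nM. It was 40-fold lower with 300 nM set to 3 reads over the group. With the 0 reads as counted, the lower 95% counting limit of the ratio was 32.1. ALS2CR12 went from 82 to 6 reads, LRRC39 from 66 to 6, GOLGA6L4 from 67 to 10, SLC10A5 from 65 to 10 and ANGPTL1 from 58 to 4. With offsets the last 4 of these genes each lost their call without a library: LRRC39 without replicate 2 of 300 nM (adjusted p = 0.069), GOLGA6L4 without either 100 nM library or replicate 2 of 300 nM, SLC10A5 without replicate 2 of 100 nM or replicate 1 of 300 nM, and ANGPTL1 without any of the 4 decitabine libraries. ANGPTL1 also lost it without offsets without replicate 2 of 100 nM (adjusted p = 0.098).

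Kinetochore and homologous recombination genes were lower more often than higher, while other lists of mitosis and repair were divided. Of 53 kinetochore, spindle and condensin genes 32 were lower and 7 higher without offsets, 30 and 9 with them, and 27 and 2 in both, after 45 had fallen at 100 nM. Without replicate 2 of 100 nM 1 was higher without offsets. CENPF, a kinetochore protein (ENSG00000117724.12, GRCh38 chr1:214603195-214664588), stood at 426.2 and 444.2 CPM with DMSO, 59.9 and 92.3 at 100 nM, then 12.2 and 12.1 at 300 nM, a second fall of 2.65 (SE 0.16, edgeR adjusted p = 7e-09) and of 1.79 with offsets. ASPM, which organises spindle poles, fell by 2.74 and 1.65, the kinesin KIF20B by 2.99 and 1.9, the kinetochore motor CENPE by 2.87 and 1.72 and the condensin subunit SMC2 by 2.22 and 1.30. Mitotic kinases and checkpoint genes were divided: of 35, 17 were higher and 12 lower without offsets and 19 and 6 with them. In both fits 12 were higher and 6 lower, the latter including the kinases PLK4 (fall of 1.85, or 1.08 with offsets) and TTK (1.44 and 0.84).

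Of 53 homologous recombination, Fanconi and checkpoint genes 31 were lower and 7 higher without offsets, 25 and 5 with them, and 22 and 1 in both, and 3 were higher without offsets when replicate 2 of 100 nM was left out. BRCA2 (ENSG00000139618.14, GRCh38 chr13:32315474-32400266), a recombination mediator, went from 27.6 and 28.7 CPM with DMSO to 8.01 and 12.8 and then to 0.894 and 1.19, a log2 fold change of -3.31 (SE 0.22, edgeR adjusted p = 1.9e-08) without and -2.16 with offsets. The damage kinases ATM and ATR fell by 2.60 and 1.77 without offsets and by 1.5 and 0.85 with them, and RIF1, which limits end resection, by 2.59 and 1.42. These genes have 12.3 to 24.0 kb of merged exons, at 36.3% to 40% GC in the longest transcript. Of 61 replication genes 12 were higher and 11 lower in both fits, and of 26 mismatch and base excision repair genes 5 and 6. APEX2, an abasic site nuclease, rose by 0.76 and 0.44.

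Among protein-coding genes averaging 1 CPM or more with 10 or more reads in every decitabine library, the 8 that fell most in both fits were ELN, BRCA2, KCNJ16, CEP162, IGFN1, CFAP44, GOLGA4 and KLHL14. IGFN1, a muscle protein, went from 774.9 and 745.7 CPM with DMSO to 262.6 and 295.4 and then to 53.3 and 68.4. At 56.8% GC its fall was 2.20 (SE 0.12, edgeR adjusted p = 5.4e-09) without and 2.29 with offsets. KCNJ16, a potassium channel of the renal tubule, went from 23.6 and 24.9 to 5.27 and 8.55 and then 0.701 and 0.887 CPM (3.11 and 2.32). CEP162 and CFAP44, both of the cilium, had log2 fold changes of -3.18 and -3.03 without offsets and -2.28 and -2.16 with them, all called, and GOLGA4, a Golgi tether, fell by 3.07 and 2.11. Of 30 kidney tubule genes 10 were lower and 5 higher in both fits. PAX8 fell by 0.97 without and by 1.20 with offsets, and HAVCR1, the kidney injury molecule KIM-1, went from 52.2 and 55.7 to 20.2 and 25.5 CPM (1.24 and 1.33).

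Zinc finger genes of chromosome 19, many of which silence retroelements, were lower more often than higher, in a number set by the offsets. Frequent lower calls were not particular to them. In the GC decile from 40.9% to 43.2%, 65.3% of genes were lower and 3.94% higher without offsets, and 30.7% and 29% with them. Of the 234 zinc finger genes tested 126 were lower and 22 higher without offsets, 71 and 32 with them, and 65 and 14 in both fits. Their median was -0.661 without and -0.178 with offsets, at a median of 42.2% GC. Without replicate 2 of 100 nM 18 were higher with offsets. ZNF83 fell by 2.08 and 1.42, and ZNF302 had log2 fold changes of -1.88 and -1.01. Of 26 other silencers of retroelements 11 were lower and 4 higher in both fits: SMCHD1 fell by 2.35 and 1.30, and the chromatin remodeller ATRX by 3.01 and 1.81. Of 27 genes of lysine 36 methylation 8 were lower and 3 higher in both. SETD2 fell by 1.22 (SE 0.14, edgeR adjusted p = 3.8e-06) and 0.60 with offsets, and the methyltransferase ASH1L by 1.21 and 0.66.

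Of the drug's targets, DNMT3B, a de novo methyltransferase, reversed. It went from 43.0 and 40.1 CPM with DMSO to 82.3 and 89 at 100 nM, then 55.1 and 59.8 at 300 nM, a fall of 0.58 (SE 0.11, edgeR adjusted p = 0.00047) and of 0.84 with offsets. DNMT1 was at 340.6 and 339.7 CPM at 100 nM and 382.4 and 379.1 at 300 nM, and had no call in either of the 2 fits (log2 fold change 0.16, adjusted p = 0.166 by edgeR, and 0.05, adjusted p = 0.531). It was called higher under upper-quartile scaling (0.33, adjusted p = 0.013), by DESeq2 (0.24, adjusted p = 0.036) and with length offsets alone (0.56, adjusted p = 1.4e-04). UHRF1, which brings DNMT1 to replicated DNA, was at 178.2 and 165.8, then 183.1 and 189.4 CPM, with no call (0.11 and -0.14). UHRF1 was called higher under upper-quartile scaling (0.28, edgeR adjusted p = 0.036) and, with offsets, lower with centred curves (-0.26, adjusted p = 0.008) or without replicate 2 of 300 nM (-0.24, adjusted p = 0.006). DNMT3A was at 10.3 and 10, then 10.1 and 10.3 CPM, with no call except with length offsets alone (0.48, edgeR adjusted p = 0.006). Of 24 genes of the methylation machinery 8 were lower and 3 higher in both fits, among them TET2, an oxidase of methylcytosine, which fell by 1.64 and 0.96. Of 31 genes of decitabine uptake, activation and inactivation 4 were lower and 4 higher in both, near the 13.9% and 11.5% of all genes tested.

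Genes of protein synthesis and respiration rose by small amounts from 100 nM to 300 nM. Of 87 cytosolic ribosomal protein genes 48 were higher and 5 lower without offsets, 47 and 11 with them, and 35 and 3 in both. Their median was 0.318 and 0.207. RPL39L, a testis-enriched copy, went from 0.408 and 0.206 CPM to 3.70 and 3.06, a rise of 3.45 and 3.05. Of 86 nuclear respiratory chain subunits 44 were higher and 5 lower without offsets, 40 and 7 with them, and 26 and 1 in both. At 100 nM against DMSO 13 ribosomal genes had risen and 5 fallen without offsets, and 11 and 35 with them. For respiratory genes these were 13 and 7 without and 17 and 37 with offsets. With offsets the respiratory median log2 level relative to DMSO went from -0.11 and -0.22 at 100 nM to 0.04 and -0.07. Without offsets it went from 0.13 and -0.02 to 0.44 and 0.36, so it ended near DMSO only with offsets. Without replicate 2 of 100 nM the counts higher at 300 nM against 100 nM were 29 ribosomal and 24 respiratory genes without offsets. Without replicate 2 of 300 nM 11 and 10 were lower. Of the 13 protein-coding genes of the mitochondrial genome 5 were lower and 1 higher in both fits. Without offsets the 5 became 2 without replicate 2 of 100 nM and 8 without replicate 2 of 300 nM. Upper-quartile scaling also left 2 lower. The direction depended on the curve: 2 were lower and 3 higher with GC offsets alone, and 12 and 0 with length offsets alone. MT-CO1, a cytochrome oxidase subunit, went from 7422.2 and 8150.4 to 5239.9 and 6291.5 CPM (fall of 0.43, or 0.52 with offsets), while MT-ND3 rose by 0.51 and 0.81 but had 0.06 and no call with length offsets alone (edgeR adjusted p = 0.637).

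Of 44 replication-dependent histone genes read in polyadenylated RNA 16 were higher without offsets and 11 with them, 10 in both fits, and none was lower in either. HIST1H1C, a linker histone, went from 32.0 and 27.1 to 88.3 and 73.6 CPM (1.45 and 0.81). Of 41 sarcomere genes, 26 of which had fallen at 100 nM, 8 were higher and 2 lower in both fits. Desmin, DES, went from 2.42 and 2.43 to 7.33 and 6.52 CPM (1.51 and 1.00), and nebulin, NEB, from 1.14 and 0.682 to 0.193 and 0.169 (fall of 2.33, or 1.82). Of 22 endothelial and fibroblast markers 8 were higher and 0 lower in both. THY1, a surface glycoprotein, went from 13.6 and 10.3 to 68.6 and 54.9 CPM, and SOX17, an endodermal and endothelial factor, from 0.571 and 0.649 to 6.52 and 5.99. Of the immune markers, the integrin ITGB2 went from 6.10 and 5.05 to 15.1 and 12.7 CPM (1.32 and 1.02). PTPRC, CD3E and FAP stayed below 0.3 CPM in all libraries.

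The remaining lists held few calls shared by both fits or were split. Over all genes 11.5% were higher and 13.9% lower in both fits. Of 22 class I antigen presentation genes 9 were higher and 4 lower without offsets (median 0.172). With offsets 6 were higher and 10 lower (median -0.131). Immediate early genes went from 16 higher and 2 lower without offsets to 7 and 6 with them. In both fits 3 class I antigen presentation genes were higher and 1 lower of 22, 7 and 8 of 37 NF-kB targets and cytokines, 10 and 5 of 42 p53 targets, 4 and 7 of 41 apoptosis genes, 3 and 9 of 40 unfolded protein and ATF4 stress genes, 12 and 9 of 45 hypoxia targets, 10 and 6 of 37 proteasome genes and 6 and 1 of 30 immediate early genes. The surface marker HLA-G, which overlaps other genes over 25.8% of its exons, rose by 2.26 and 1.74. PHGDH, which opens serine synthesis, went from 0.652 and 0.584 to 3.99 and 3.41 CPM (2.58 and 2.54), and HSP90B1, a chaperone, fell by 1.05 and 0.48. IL32 rose by 0.99 and 0.54, and BIRC3, an inhibitor of cell death, fell by 2.07 and 0.98.

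**Figure D4:**
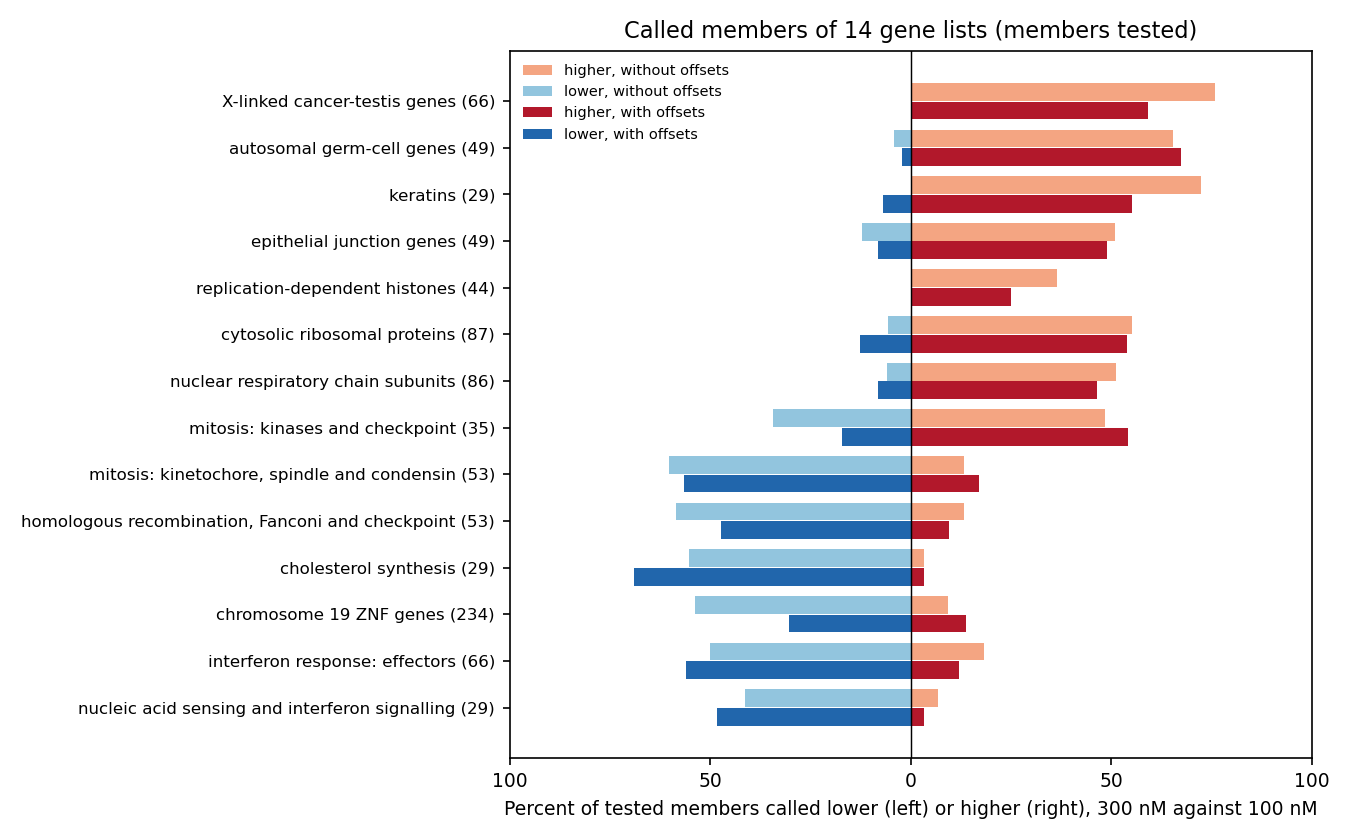
Share of tested members called lower (left of 0) or higher (right) at 300 nM against 100 nM in 14 gene lists, without offsets (pale bars) and with offsets (dark bars), with members tested in brackets. X-linked cancer-testis genes have 0 lower calls, while interferon effectors and cholesterol synthesis genes lie mostly to the left; over all genes 20.0% and 23.4% were called higher and lower without offsets.

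Long non-coding RNAs fell more often than they rose. Of 4247 tested 254 (5.98%) were higher and 629 (14.8%) lower without offsets, against 20.0% and 23.4% of all genes tested. With offsets these were 215 (5.06%) and 718 (16.9%), against 18.1% and 20.9%. Calls in either direction were thus rarer than over all genes. The median was -0.195 without and -0.355 with offsets, whose curves were fitted on protein-coding genes only. ERVH48-1, from an endogenous retrovirus, went from 2.42 and 2.68 to 11.2 and 10.6 CPM, a rise of 2.1 (SE 0.22, edgeR adjusted p = 1.4e-06) and 1.92 with offsets, and AC117402.1 rose by 2.04 without offsets and 2.27 with them. STARD4-AS1 went from 2.13 and 2.55 to 0.338 and 0.211 CPM (log2 fold change -3.10, or -2.70 with offsets) and LINC00342 from 1.75 and 2.98 to 0.314 and 0.264 (3.03 and 2.62). Counting did not use strand, so reads of STARD4-AS1, 17.9% of whose exons overlap another gene, cannot be separated from those of its neighbour.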

How the data were processed

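Reads per gene (counts, not normalised) were deposited by the authors for 6 libraries; per the submitters' processing notes they used STAR, SAMtools and featureCounts, which is 1.5.0-p3 per the file headers, with GENCODE v28 gene models. The recorded command sets no paired-end and no strand mode: each mate counts as 1 read, and sense and antisense reads are pooled. The notes name hg19 and GRCh37, but the coordinates are GRCh38: 56933 identifiers with the same version in GENCODE v29 all had the same coordinates there. The authors also deposited a matrix of log2 values, used in 1 alternative; how it was made is not given in the sources used here beyond DESeq2 being named. No per-sample column was left unused.

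Names, types and GC content came from GENCODE v29. Counts were scaled by TMM, filtered with filterByExpr and tested with edgeR 4.0.16 (quasi-likelihood, two-sided, Benjamini-Hochberg over 23160 genes, adjusted p under 0.05) in a fit of all 6 libraries by group, with 3 residual degrees of freedom (limma 3.58.1, DESeq2 1.42.0, R 4.3.3). For the offsets, the deviation of each library's log2(CPM + 0.5) from the gene mean was regressed (MASS rlm) on natural splines of 5 df of log2 exon length and of GC content in 12432 protein-coding genes averaging 1 CPM or more, and the fitted value was subtracted for all genes. Median levels relative to DMSO were also taken from log2(CPM + 0.5), which shrinks changes of genes near 0 CPM. The scripts were tested on simulated data. Lists are described by counts and medians, with no test of the list. Between the replicates of a group the chi-square per gene was 11.4 with DMSO, 34.7 at 100 nM and 63.1 at 300 nM. It was taken against raw library totals, not TMM sizes, and mates were counted separately. Both can raise it, so it does not measure the spread per gene alone. Counting intervals are exact binomial at 95% and floors are 3 reads, for counting error only.

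The comparison, the lists of genes and the naming rule were chosen with earlier results of these data known. Named genes are SETD2, DNMT1, DNMT3A, DNMT3B and UHRF1; protein-coding genes averaging 1 CPM or more, with 10 or more reads in every decitabine library, that have the 8 highest and 8 lowest changes in both fits (4 each for lncRNA); the 6 at the highest level among genes with at most 10 reads over a dose; the 6 largest in each dose course; up to 4 members of each list called the same way in both fits; and the 4 most abundant in each order that change side with the offsets. The effectors MX1, IFI27, PARP12, IFIT1, IFIT3 and OAS2, and the cell markers, were named after their values were seen. Some genes that the rule names are not reported here. Alternatives were another scaling, DESeq2, other filters, a replicate block, offsets for length or GC content alone, other curves, the deposited log2 values and leaving out each library.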

Additional observations from a re-analysis of the deposited data

How the results depend on the processing

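Of 202 named genes, 180 kept their call and direction without offsets, and 167 with offsets, under every alternative run for them. Most were named for having the same call in both fits, often as the largest changes. Keeping a call under the length and GC offsets was thus largely set by that choice, and these counts do not speak for genes in general. Without offsets, genes lower at 100 nM and then higher at 300 nM numbered 673 with length and GC offsets and 622 with GC offsets alone (390 before). With offsets they numbered 385 when the curves were centred at 0, an alternative chosen after seeing the data. The causes were not tested.

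Replicate numbers were not taken to pair the libraries: deviations from the group means correlated at 0.13, 0.15 and 0.37 between groups, and with 2 libraries in each group no more than 2 pairs could be formed; the labels name no shared batch or culture. With a replicate block 5299 genes were higher and 6044 lower at 300 nM than at 100 nM, 603 were lower and then higher and 681 higher and then lower. With the block and offsets together 751 were higher and then lower and 718 lower and then higher. The block changed 1 named call, MT1G, which was lost with offsets.

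Leaving out each library in turn gave 2896 to 4901 genes higher, 237 to 624 higher and then lower, 127 to 585 lower and then higher, and 1646 to 3002 lower at both steps. With offsets it gave 409 to 753 higher and then lower and 351 to 699 lower and then higher.

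Log2 fold changes of named genes that changed sign were as follows. With length and GC offsets they were 0.41 for YWHAZ, 0.23 for CANX, 0.89 for HNRNPU, 0.51 for ITM2B, -0.17 for HLA-C, -0.18 for ISG15, -0.22 for CAPG, -0.01 for DNMT3A and -0.14 for UHRF1, and adding the block gave the same values to 2 decimals except -0.15 for UHRF1. With GC offsets alone they were 0.31 for YWHAZ, 0.22 for CANX, 0.63 for HNRNPU, 0.38 for ITM2B, -0.09 for HLA-C, -0.12 for CAPG, -0.23 for DNMT3A, -0.15 for UHRF1, -0.13 for DNMT1 and 0.11 for MT-ND6. With length offsets alone HNRNPU had 0.35 and CIITA 0.08. DNMT3A had -0.00 in the 4 decitabine libraries alone. With a library left out it had -0.02 to 0.02 without and -0.07 to 0.03 with offsets. With offsets DNMT1 had -0.04 from binned medians, -0.07 from centred curves and -0.02 to 0.10 when a library was left out. At this depth, genes under about 0.03 CPM could not be told from 0.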
